A study of Mus musculus with 14 samples.

Results

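The Cyp2b genes encode a family of cytochromes P450, and 5 of them (Cyp2b9, Cyp2b10, Cyp2b13, Cyp2b19 and Cyp2b23) were listed among the 17552 genes of the hepatic count table. The members were taken by their symbols, and no other symbol starting with Cyp2b was present. They had been picked because some of them differed between the groups compared here, so their differences are a description and no p-value is given for them.

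Hepatic RNA was sequenced from male C57BL/6 mice (C57BL/6J in the study's methods) deficient in Apoe, the apolipoprotein that clears remnant lipoproteins, with a labelled age of 8 weeks. Both groups received a Western diet, for 8 weeks according to the labels (the study's methods give a longer time). The diet of 1 group also held erythrodiol, a triterpene alcohol of olive, at an estimated dose of 10 mg/kg of mouse. Each group had 7 libraries, and each library was a pool of RNA from a few mice. The genes were counted as 1 sum per group, so that neither the values of single pools nor their spread were analysed here, and a difference could not be set against biological error. Levels are given in CPM, counts scaled to a group total of 1000000. The 2 sums were of like depth, 122889032 counts in controls and 124686047 with erythrodiol. Intervals given below are exact 95% intervals that cover counting error only. Of the 14 libraries, control replicates 1 and 4 had the highest shares of gene-mapped reads on more than 1 gene. These were 36.9% and 29.5%, against at most 20.7% in any erythrodiol library. Control replicate 3 had the fewest clean reads, 34856340, and the lowest share mapped to genes, 64.33%. The part of these libraries in the sums could not be removed. Apoe was still counted at 9403 control and 8293 erythrodiol counts, and markers of the labelled tissue, liver, were abundant, with 117915 to 118282 CPM summed over 9 hepatocyte genes.

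Cytochromes of the 2B subfamily sit in the endoplasmic reticulum and use electrons from cytochrome P450 oxidoreductase (Por) to hydroxylate drugs, steroids and fatty acids. Cyp2b10 is the classical gene switched on by phenobarbital through the constitutive androstane receptor CAR (Nr1i3), and also through the pregnane X receptor PXR (Nr1i2). Cyp2b9 and Cyp2b13 are known as forms that adult female mouse liver carries at higher levels than male liver, under the control of the pattern of growth hormone release, and Cyp2b19 is known from skin keratinocytes.

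The members lie in a cluster of Cyp2 genes on chromosome 7 of the mouse genome build GRCm38. Whether their promoter sequences have a part in the differences between the groups was not tested. By the GENCODE annotation, Cyp2b10 occupies chr7:25897620-25926624, Cyp2b13 chr7:26061497-26096197 and Cyp2b9 chr7:26173411-26210661 on the plus strand, while Cyp2b23 occupies chr7:26665227-26686437 on the minus strand and Cyp2b19 chr7:26757142-26772630 on the plus strand. Each has 9 exons. The sequences below, from RefSeq on GRCm38.p6, run 5′ to 3′ on the plus strand, from 250 bases before to 50 bases after the RefSeq start. These starts differ from the GENCODE ones above, and positions of matches count from them. The windows lie at chr7:26173159-26173458 for Cyp2b9, chr7:26061245-26061544 for Cyp2b13 and chr7:25897408-25897707 for Cyp2b10. Matches to AGGTCA (a nuclear receptor half-site) and TTGCNNAA (a C/EBP site) are in capitals.
Cyp2b9: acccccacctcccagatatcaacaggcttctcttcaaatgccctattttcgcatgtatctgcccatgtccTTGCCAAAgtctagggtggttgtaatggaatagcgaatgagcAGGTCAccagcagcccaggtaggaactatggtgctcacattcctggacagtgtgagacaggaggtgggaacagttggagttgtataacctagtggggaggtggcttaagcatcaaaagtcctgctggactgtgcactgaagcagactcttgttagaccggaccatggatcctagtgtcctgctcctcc
Cyp2b13: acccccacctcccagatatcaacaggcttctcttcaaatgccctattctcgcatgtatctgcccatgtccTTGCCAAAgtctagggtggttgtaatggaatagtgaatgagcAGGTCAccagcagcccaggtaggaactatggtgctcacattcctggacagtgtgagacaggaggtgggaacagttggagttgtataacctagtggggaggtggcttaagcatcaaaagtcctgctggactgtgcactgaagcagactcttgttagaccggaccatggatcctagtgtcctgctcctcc
Cyp2b10: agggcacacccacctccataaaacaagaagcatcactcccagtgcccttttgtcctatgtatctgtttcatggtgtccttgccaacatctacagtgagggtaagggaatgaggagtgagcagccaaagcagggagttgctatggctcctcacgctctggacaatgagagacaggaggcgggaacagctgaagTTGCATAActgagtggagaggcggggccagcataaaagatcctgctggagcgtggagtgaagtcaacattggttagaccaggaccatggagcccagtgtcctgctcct

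The promoters of Cyp2b9 and Cyp2b13 were 99.3% identical. They differed at 2 of 300 bases, T48C and C104T, counted from 1 at the 5′ end of the window with the base of Cyp2b9 first. Cyp2b9 and Cyp2b10 were 73.4% identical over 304 aligned columns, of which 81 differed. The promoter of Cyp2b9 was 72.8% identical to that of Cyp2b19 and 75.3% to that of Cyp2b23. In all, 5 motifs were searched on both strands, and matches are a description of letters only. Bases outside these windows, such as those further upstream, were not searched. AGGTCA was found in Cyp2b9 and Cyp2b13 at position -138 from the start, in Cyp2b23 at -164 and in Cyp2b19 at -121, but not in the window of Cyp2b10, and 16.3% of all 32851 promoters held it. TTGCNNAA was present in all 5 members, at -180 in Cyp2b9 and Cyp2b13, -58 in Cyp2b10, -85 in Cyp2b23 and -40 in Cyp2b19, against 10.8% of all promoters. The other 3 motifs, TATAAA (13.6% of promoters), TTCNNNGAA (a STAT5 site, 8.30%) and TGTTTAC (a FOXA site, 3.65%), had no match in any member.

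Cyp2b9, the most abundant member, was lower in the livers of mice that received erythrodiol. It had 6014.93 counts over the 7 control libraries and 1523.98 over the 7 erythrodiol libraries, or 48.9 and 12.2 CPM. The erythrodiol level was 4.00-fold lower (interval 3.79 to 4.24), a log2 ratio of -2.00 (-2.08 to -1.92).

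Cyp2b13, the close relative of Cyp2b9, was lower by a wider margin from a smaller level. Its counts were 335.85 in controls and 27.02 with erythrodiol, or 2.73 and 0.217 CPM. This was 12.6-fold lower (8.52 to 19.4), a log2 ratio of -3.66 (-4.28 to -3.09). The counting intervals of Cyp2b9 and Cyp2b13 did not overlap, but they leave out biological error and any division of reads between these genes. Whether the folds of Cyp2b9 and Cyp2b13 differ was therefore not tested.

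Cyp2b10, the phenobarbital-inducible member, was in the opposite direction. It had 43.22 control counts and 134 erythrodiol counts, or 0.352 and 1.07 CPM, a mean of 6.17 and 19.1 counts per library. The level with erythrodiol was 3.06-fold higher (2.16 to 4.44), a log2 ratio of 1.61 (1.11 to 2.15). By RT-qPCR of single mice of the groups compared here, the study reported significant changes in Cyp2b9 and Cyp2b10 but not in Cyp2b13. Its fold for Cyp2b10 was smaller than the one given here, as was that for Cyp2b13, while that for Cyp2b9 was larger. In that assay Cyp2b9 was thus lower by a wider margin than Cyp2b13. The study saw no significant change of Cyp2b9, Cyp2b10 or Cyp2b13 in female Apoe-deficient or in Apoa1-deficient mice. In males given smaller doses, Cyp2b9 was significantly higher at the lowest dose, and Cyp2b10 did not differ significantly.

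The remaining members were hardly counted. Cyp2b23 had 4 control and 3 erythrodiol counts, an erythrodiol to control ratio of 0.739 with an interval from 0.108 to 4.37. Cyp2b19, the keratinocyte form, had 1 count and 0 counts, and no fold is given because both lie under the limit of 3 counts that a count of 0 allows (0.0244 and 0.0241 CPM). A difference in either was not detectable at this depth.

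**Figure D1:**
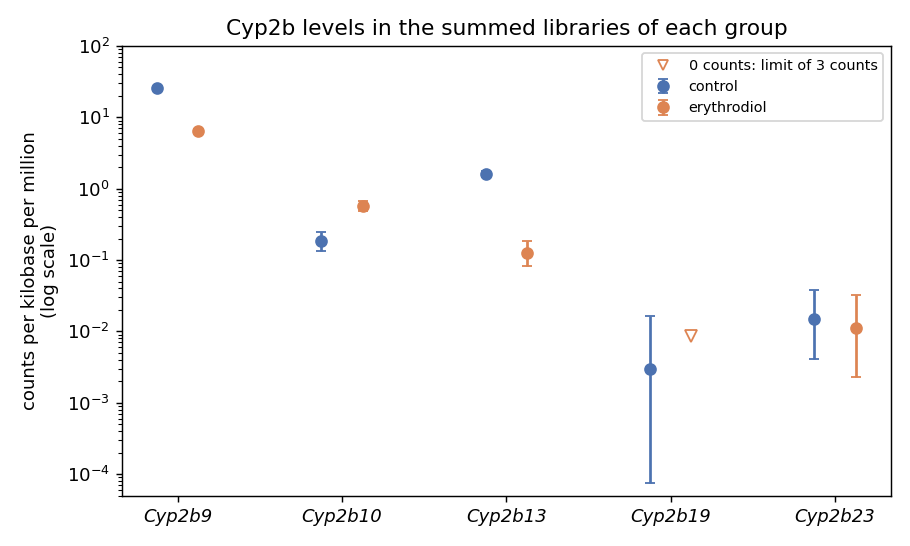
CPM per kilobase of transcript (log axis) of the 5 Cyp2b genes in the control and erythrodiol group sums, with 95% counting intervals and an open triangle for the limit of 3 counts where none was counted. Cyp2b9 (26.1 to 6.51) and Cyp2b13 (1.60 to 0.127) were lower with erythrodiol, Cyp2b10 (0.187 to 0.572) was higher, and the intervals of Cyp2b23 overlap.

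Of the 5 members, 3 had at least 100 counts over both groups, and all 3 were past 2-fold, 2 lower and 1 higher. Of all 13291 genes with that many counts, 0.549% were at least 2-fold lower and 0.218% at least 2-fold higher. The members were chosen on this contrast, so nothing is read from the comparison. Cyp2b13 had the 3rd lowest log2 ratio of the 13291 genes, Cyp2b9 the 10th lowest and Cyp2b10 the 3rd highest. The median over the 13291 genes was 0.16, with 71.2% of them above 0. Scaling both groups to that median instead of the totals lowers every log2 ratio given here by 0.16, which leaves the direction of Cyp2b9, Cyp2b10 and Cyp2b13 as it is and turns the sign of other genes between 0 and 0.16, such as Nr1i2.

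**Figure D2:**
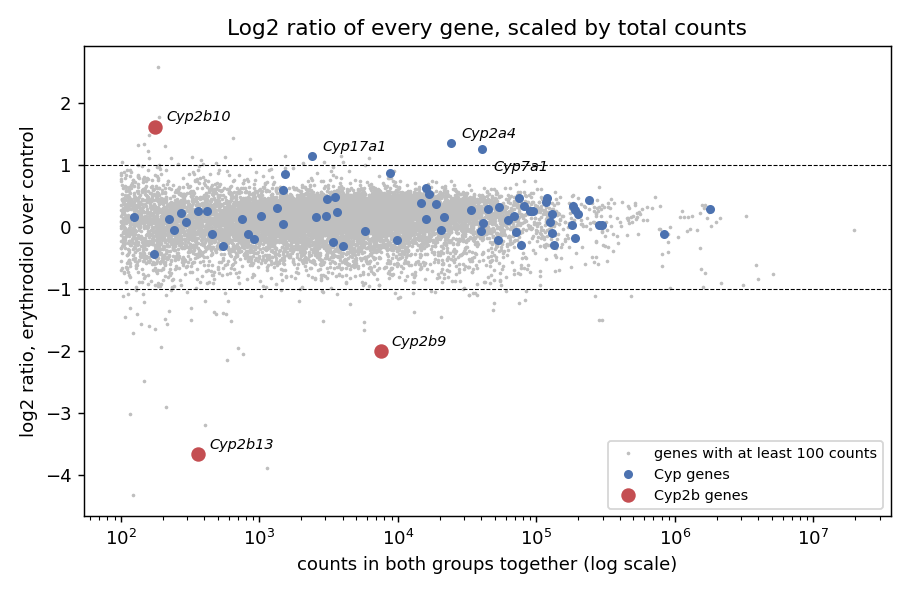
Log2 ratio of erythrodiol to control against the summed counts of both groups (log axis) for the 13291 genes with at least 100 counts, with the Cyp2b members in red, other Cyp genes in blue and dashed lines at 2-fold. Cyp2b9 (-2.00) and Cyp2b13 (-3.66) lie at the lower edge and Cyp2b10 (1.61) at the upper edge of the cloud, whose median is 0.16.

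The family as a whole followed Cyp2b9. Its summed counts were 6399 in controls and 1688 with erythrodiol, or 52.1 and 13.5 CPM, 3.85-fold lower (3.64 to 4.06). Without Cyp2b9 the log2 ratio of the sum was -1.25, against -1.94 with it. The sum without Cyp2b10 gave -2.05 and that without Cyp2b13 -1.89.

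The make-up of the family counts differed between the groups. Cyp2b9 held 94.0% of them in the control group (93.4 to 94.6) and 90.3% in the erythrodiol group (88.8 to 91.7). Cyp2b13 went from 5.25% (4.72 to 5.83) to 1.60% (1.06 to 2.32), whereas Cyp2b10 went from 0.675% (0.487 to 0.904) to 7.94% (6.69 to 9.33). Per length, in CPM per kilobase of transcript, the order in the control group was Cyp2b9 at 26.1, Cyp2b13 at 1.60 and Cyp2b10 at 0.187. In the erythrodiol group it was Cyp2b9 at 6.51, Cyp2b10 at 0.572 and Cyp2b13 at 0.127, so that Cyp2b10 and Cyp2b13 changed places. The level of Cyp2b13 per length was 8.56 times that of Cyp2b10 (6.25 to 12.1) in the control group, and that of Cyp2b10 was 4.50 times that of Cyp2b13 (2.96 to 7.09) in the erythrodiol group. Cyp2b9 stood 139 times above Cyp2b10 (104 to 194) in the control group and 11.4 times (9.53 to 13.7) in the erythrodiol group.

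How evenly the pools contributed cannot be read from sums. In the study's RT-qPCR of single mice, the SD of Cyp2b9 and of Cyp2b13 exceeded the mean in both groups. That of Cyp2b10 did so with erythrodiol but not in controls. If 6 control libraries had held Cyp2b9 at the mean of the erythrodiol libraries, the seventh would have had to hold 4727 counts, 78.6% of the control sum. For Cyp2b13 the same reckoning gives 313 counts, or 93.2%. For Cyp2b10, 1 erythrodiol library would have had to hold 96.4 counts, or 71.9% of its sum. In bulk liver RNA, fewer cells of a type and less RNA per cell cannot be told apart.

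The members are alike in sequence, and reads can be placed on more than 1 of them. Cyp2b9 and Cyp2b13 transcripts were 89.3% identical (204 of 1903 aligned columns differed), with a median of 9 differences per 100 bases, and 19.0% of their 100-base windows had at most 3 differences. Exact matches of 100 bases, the read length, were few: 21 of the 1777 windows of Cyp2b9 were also found in Cyp2b13. Cyp2b10 was 86.1% identical to Cyp2b9 and 85.7% to Cyp2b13, and shared none of its 1817 windows with another gene. Even so, 20.4% of the windows aligned between Cyp2b10 and Cyp2b13 had at most 3 differences, against 2.40% between Cyp2b10 and Cyp2b9. Of the windows of Cyp2b13, 165 (9.29%) were found in another gene, either Cyp2b9 (21 windows) or the pseudogene Gm45225, which was not among the counted genes.

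**Figure D3:**
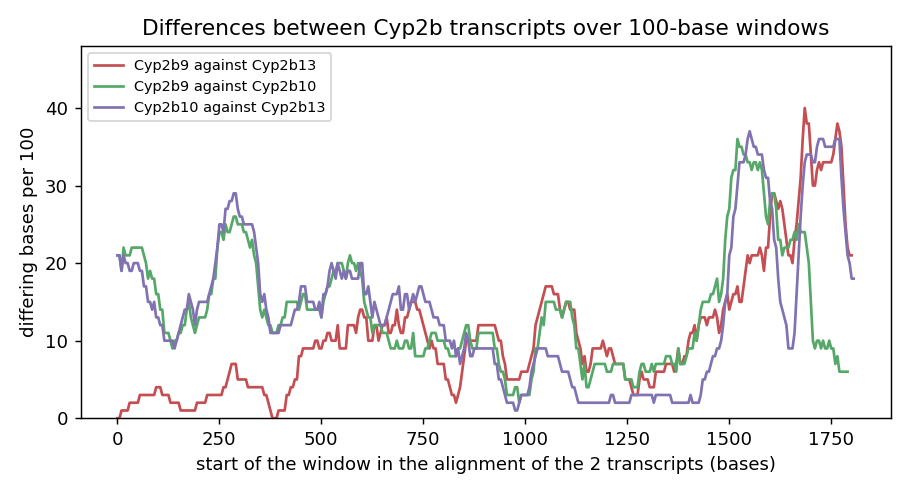
Differing bases per 100 in windows along pairwise alignments of the Cyp2b9, Cyp2b10 and Cyp2b13 transcripts (horizontal axis, window start in bases of the alignment). The Cyp2b9 and Cyp2b13 pair falls to 0 differences in its early part, while Cyp2b10 and Cyp2b13 come closest in a later stretch.

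Expected counts of a gene that are not whole show where the counting tool divided reads between transcripts of different genes. Counts of 3 of the 5 members were not whole in the control group (Cyp2b9, Cyp2b10 and Cyp2b13) and of 2 in the erythrodiol group (Cyp2b9 and Cyp2b13). This was so for 17.3% and 17.7% of all genes, and for 35 and 33 of the 71 Cyp genes with at least 100 counts. Reads divided between members stay in their sum, and the sum of Cyp2b9 and Cyp2b13 was 6350.78 counts in controls and 1551 with erythrodiol, a log2 ratio of -2.05. The sum of the 5 members was whole in both groups, at 6399 and 1688 counts. The share of reads moved between members was not tested, and the level of Cyp2b13 in particular is uncertain to that extent.

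Reads that map to more than 1 gene could be compared across libraries. Their share of gene-mapped reads was 20.5% ± 9.51 (SD, n = 7) in the control group, with a lowest value of 10.9, a median of 18.1 and a highest of 36.9. In the erythrodiol group it was 15.7% ± 2.77 (SD, n = 7), with 12.8, 14.8 and 20.7. The groups overlapped, with 2 control libraries above and 2 below all erythrodiol libraries. The difference of -4.81 percentage points was within the spread between libraries (two-sided exact permutation test, p = 0.261). This share covers all genes, and its part in the values of the Cyp2b genes was not tested.

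**Figure D4:**
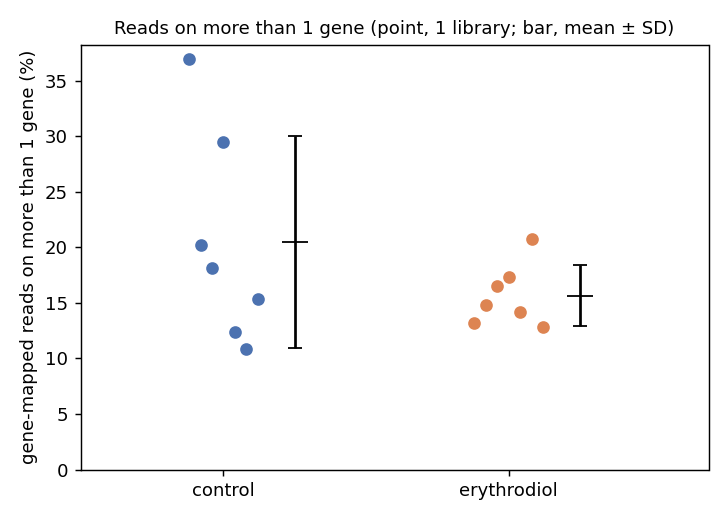
Share of gene-mapped reads that mapped to more than 1 gene, in percent, in each of the 7 control and 7 erythrodiol libraries, with mean ± SD. The control libraries spread from 10.9 to 36.9% and the erythrodiol libraries from 12.8 to 20.7%, with overlap.

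The reference used for counting also held new coding transcripts at some of the members. Cyp2b13 had 1, of 10 exons and 1765 bases, at chr7:26061495-26096197. Cyp2b9 had 1, of 10 exons and 6610 bases, at chr7:26173335-26224873, and in each of these 7 exons equalled annotated ones. The last exon of the Cyp2b9 transcript, at chr7:26223485-26224873, began 12824 bases past the annotated end of the gene. No new coding transcript was assigned to Cyp2b10, Cyp2b19 or Cyp2b23, and none of the 16 listed splicing events was in a member.

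Neighbours in the cluster did not share one direction. The cluster spans chr7:25802475-27158668 and holds 16 Cyp2 genes, 13 of them coding and 10 with at least 100 counts, of which 2 were at least 2-fold higher and 2 at least 2-fold lower. Besides Cyp2b10, the higher one was Cyp2a4, a testosterone hydroxylase, with 54.7 and 140 CPM, a 2.55-fold difference. The control count of Cyp2a4, 6725.06, was not whole, and sequence that it may share with other genes was not examined. Cyp2a4 sits on the other side of Cyp2b9 from Cyp2b13, so that the lower pair lies between the higher genes along the chromosome. Other neighbours with at least 100 counts were within 2-fold, with log2 ratios of 0.43 for Cyp2f2, a lung and liver form, 0.27 for Cyp2a5, the coumarin hydroxylase, 0.23 for Cyp2s1, 0.21 for Cyp2a12, -0.04 for Cyp2g1 and -0.31 for Cyp2a22. Cyp2t4 had 0 and 5 counts. The 7 neighbours had a median of 0.23, beside 0.16 over all genes.

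**Figure D5:**
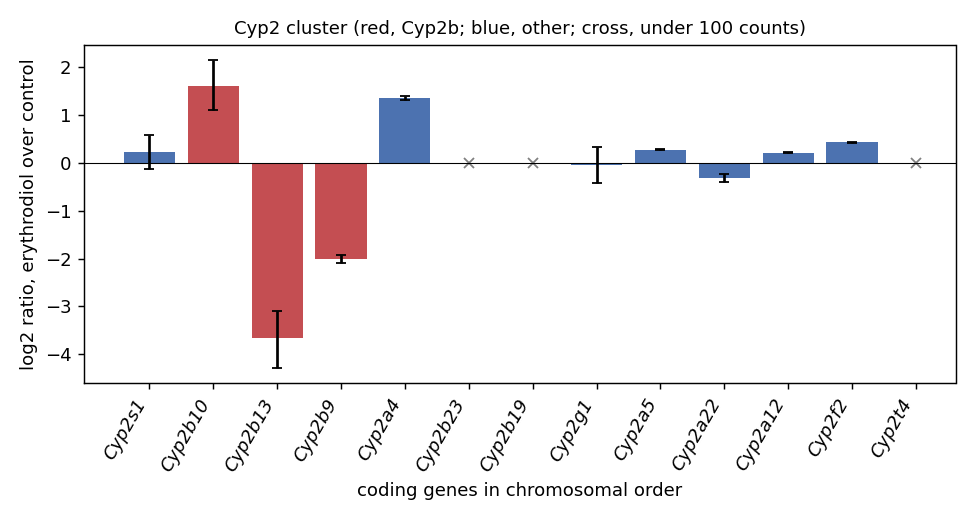
Log2 ratio of erythrodiol to control for the coding Cyp2 genes of the chromosome 7 cluster, in their order along the chromosome, with 95% counting intervals as error bars and crosses for genes under 100 counts. Cyp2b13 (-3.66) and Cyp2b9 (-2.00) are below 0 between Cyp2b10 (1.61) and Cyp2a4 (1.35), and the other genes with at least 100 counts lie between -0.31 and 0.43.

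Among all 71 Cyp genes with at least 100 counts, 4 (5.63%) were at least 2-fold higher and 2 (2.82%) at least 2-fold lower. Of all genes with that many counts, 0.218% were at least 2-fold higher and 0.549% at least 2-fold lower. The lower Cyp genes were Cyp2b13 and Cyp2b9, and the higher ones included Cyp2b10. These members were chosen on this contrast, so nothing is read from the shares. Nearest to Cyp2b10 in log2 ratio, over the 2 group values, were Cyp2a4 at 1.35, Cyp7a1 at 1.25 and Cyp17a1 at 1.14. Cyp7a1, the rate-limiting enzyme of bile acid synthesis, had 11875 control and 28636 erythrodiol counts, and Cyp17a1, an enzyme of steroid hormone synthesis, had 741 and 1659. Outside the family no Cyp gene came near the lower members: the nearest to Cyp2b9 was Cyp3a57 at -0.43, a distance of 1.57, and the nearest to Cyp2b13 was Cyp2b9, at 1.66.

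The receptors that regulate Cyp2b10 and the electron donors of the family differed by less than 2-fold. Nr1i3 was at 120 and 148 CPM, a log2 ratio of 0.30, and Nr1i2 at 67.7 and 71.9, a ratio of 0.09. Por, which supplies electrons to all microsomal P450s, was at 189 and 290 (0.62), and Cyb5a, cytochrome b5, the other donor, at 1091 and 725 (-0.59). Hsp90aa1, a chaperone, was at -0.06. Of the 14 receptors and partners none was past 2-fold, and their median was 0.34, beside 0.16 over all genes.

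Other targets of CAR and PXR had smaller log2 ratios than Cyp2b10 (1.61), a member chosen on this contrast. None of the 30 with at least 100 counts was past 2-fold in either direction, 18 were above 0 and 12 below, and the median was 0.11. Of all genes with that many counts, 71.2% were above 0, and the median was 0.16. Among them 0.549% were at least 2-fold lower and 0.218% at least 2-fold higher. The highest were Ugt1a9, a glucuronosyltransferase, at 0.73 and Alas1, the first enzyme of haem synthesis, at 0.69. The lowest were Akr1b7, an aldo-keto reductase, at -0.40 and Cyp3a25 at -0.29.

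Genes that share the female bias of Cyp2b9 and Cyp2b13 lay in both directions, and their balance depended on the processing. Of 13 female-biased genes with at least 100 counts, 2 were at least 2-fold higher (Cyp2a4 and Cyp17a1) and 1 at least 2-fold lower, and the median was 0.27. Over all genes with that many counts 0.218% were at least 2-fold higher and 0.549% lower, and the median was 0.16. The lower female-biased gene was Hao2, a peroxisomal hydroxyacid oxidase, with 557 and 147 counts (-1.94), and Prom1, a membrane glycoprotein, followed at -0.88. Scaled to the median ratio, 1 of the 13 was higher and 2 were lower, with Cyp17a1 no longer past 2-fold and Prom1 past it. Of the 23 listed genes, 10 were under 100 counts, and with these included 3 were higher and 5 lower. Among 23 male-biased genes 1 was past 2-fold, Mup1, a urinary pheromone carrier, at 1781 and 629 CPM (-1.50), with Mup7 at -0.93, which was past 2-fold as well when scaled to the median ratio. The highest of these were Cyp2u1 at 0.44 and Gstp1 at 0.38, and the median was 0.02.

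The growth hormone axis, on which the sex bias of liver genes is known to depend, had 1 of 15 genes past 2-fold. Onecut1, a hepatocyte transcription factor, was higher with 947 and 1975 counts (1.04) and was not past 2-fold when scaled to the median ratio, which left 0 of the 15. It was followed by Cish, a feedback inhibitor of the receptor, at 0.75. The lowest were Socs3 at -0.33 and Socs1 at -0.13, both suppressors of cytokine signalling. The median of the 15 was 0.30, beside 0.16 over all genes. Zonal markers were within 2-fold. The 14 pericentral genes had a median of 0.28, from Lgr5 at 0.49 and Cyp1a2 at 0.47 to Lect2 at -0.39 and Rgn at -0.57, and the 13 periportal genes a median of 0.10, from Pck1 at 0.65 and Ass1 at 0.45 to Ctsc at -0.18 and Sdsl at -0.28.

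Markers of Kupffer cells and of bile duct epithelium had lower sums with erythrodiol, with 1 of 8 and 1 of 6 genes at least 2-fold lower (2 of 6 when scaled to the median ratio). Those of Kupffer cells summed to 1004 CPM in controls and 661 with erythrodiol, with 7 of 8 below 0, from Marco at -1.07 and Adgre1 at -0.75 to Csf1r at -0.17 and Cd68 at 0.04. Those of bile duct epithelium summed to 117 and 79.3, with 6 of 6 below 0, from Cldn4 at -1.45 and Krt19 at -0.89 to Krt7 at -0.29 and Sox9 at -0.09. Of all genes with at least 100 counts, 28.8% were below 0 and 0.549% at least 2-fold lower. Markers of sinusoidal endothelium summed to 192 and 198 and those of stellate cells to 540 and 554, with none past 2-fold. None of the defining markers of these cells was at 0, and their part in the differences of the Cyp2b genes was not tested.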

How the data were processed

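Liver RNA of 14 pools (7 control, 7 erythrodiol) was sequenced as polyA libraries in paired reads of 100 bases. The authors deposited 1 expected count per gene and group, summed over the 7 libraries and not normalized. They had mapped clean reads with Bowtie2 to reference transcripts merged with new coding ones (HISAT, StringTie, Cufflinks) and counted with RSEM, whose versions are not given in the sources used here. For each library the authors also deposited the count of clean reads (34856340 to 55244294) and the percent of reads mapped to genes, in all and uniquely. Their columns of log2 ratios, p-values and q-values for this comparison were not used.

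Counts were divided by the group total, and ratios have exact conditional binomial intervals of 95%, which cover counting error only. Reads copied by PCR are not independent molecules, so the intervals may be too narrow even for that error. With 1 value per group no gene was tested. A ratio past 2-fold counts as a call, over genes with at least 100 counts in both groups together. The share of reads on more than 1 gene was compared by an exact permutation test over libraries. Nothing says which mice made up each pool, and p-values measure the spread between these pools. Transcript and promoter identities came from global alignments of GENCODE (vM21) transcripts and RefSeq promoters (GRCm38.p6).

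The members and lists were chosen with earlier results of these data known. Named genes were the members, the cluster neighbours, the 2 highest and 2 lowest of each list, the 3 Cyp genes nearest to each member with at least 100 counts, and Nr1i3, Nr1i2, Por and Apoe. A count was called whole within 0.005. Alternatives were other scalings, no filter on low counts, a pseudocount of 1, sums without each member, leaving out each library and a replicate block. The calculations were tested on simulated data. The software was Python 3.11.15 with scipy 1.17.1, Biopython 1.88, pandas 2.3.3, numpy 2.4.6 and matplotlib 3.10.9. Protein sequences were not analysed here, and some genes that the rule names are not reported here.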

Additional observations from a re-analysis of the deposited data

How the results depend on the processing

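Cyp2b9, Cyp2b10, Cyp2b13 and the family sum kept their direction under every scaling tried. Scaling to the median ratio or to the upper quartile moved Cyp2b9 to -2.16 and -2.17 and the family sum to a log2 ratio of -2.11 under both, and the median ratio of genes of like length moved them to -2.11 and -2.04. Cyp2b10 ranged from 1.44 to 1.61 and Cyp2b13 from -3.83 to -3.61. The family sum was -1.25 without Cyp2b9 and -2.05 without Cyp2b10. Scaled to the median ratio, genes past 2-fold went from 2 to 1 among the higher female-biased genes (Cyp17a1), from 1 to 2 among the lower ones (Prom1), from 1 to 2 among the lower male-biased (Mup7) and bile duct genes (Krt19), and from 1 to 0 in the growth hormone axis (Onecut1). With no filter on low counts, the lower genes numbered 1 in place of 0 among CAR and PXR targets and 5 in place of 1 among female-biased genes.

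The difference in reads on more than 1 gene ranged from -6.41 to -2.06 percentage points on leaving out single libraries, nearest to 0 without control replicate 1 (p = 0.522 in the exact permutation test) and -3.30 without control replicate 4. It was -3.88 as a share of clean reads, and the exact Mann-Whitney test gave p = 0.535. Replicate numbers are only names here: with libraries paired by number as a block the difference was -4.81 (exact sign-flip permutation test, p = 0.297), and same-numbered libraries had a correlation of -0.307 over 7 pairs. Sums per group limit the rest: libraries could not be left out of any gene's value.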

Other observations

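Among the 10 female-biased genes with fewer than 100 counts, which were left out of the counts past 2-fold, the sulfotransferases Sult2a1 and Sult2a2, chosen here after their values were seen, had 16.24 and 10.75 control counts and 1 and 0 erythrodiol counts. Cyp3a44, a female-predominant cytochrome, had 38 and 35.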
